A study of Mus musculus with 6 samples.

Results

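Glycolysis runs through a chain of enzymatic steps, and several of the steps are catalysed by isozymes, that is, enzymes from separate genes with the same reaction. The genes described here are the isozymes of 4 steps. Hexokinase traps glucose in the cell by phosphorylation and is given by Hk1, Hk2 and Hk3. Phosphofructokinase makes the committed step and is given by the liver-type Pfkl, the muscle-type Pfkm and the platelet-type Pfkp. Enolase makes phosphoenolpyruvate and is given by Eno1 and Eno2, and lactate dehydrogenase, which converts pyruvate and lactate into each other, by Ldha and Ldhb. They were taken by their gene symbols from a table of 15388 genes, in which all 10 of 10 symbols were found, and all 10 passed the filter on low reads.

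RNA came from hippocampus of Cx3cr1-Cre/Ert2+; NuTRAP+ mice given tamoxifen. The study's methods give about 3 months of age and both sexes for its mice, but not the sex of animals 201, 207 and 208. Tamoxifen was also given at about 3 months, and the paper describes collecting brains of this line some weeks after it. In these mice a Cre recombinase under the promoter of Cx3cr1, the fractalkine receptor gene of microglia, is activated by tamoxifen and switches on NuTRAP, which puts a GFP-tagged protein on ribosomes and a label on nuclei of the recombined cells. Cre and NuTRAP were each heterozygous, every library came from such an animal, and no animal without Cre was analysed here. In translating ribosome affinity purification (TRAP), part of the cleared homogenate was kept as input and the RNA pulled down with an anti-GFP antibody was the positive fraction. Animals 201, 207 and 208 each gave 1 input and 1 positive library, 6 in all, with 14879734 to 17757918 reads per library. Input holds RNA of all cells whether or not it is on ribosomes, while the positive fraction is meant to hold ribosome-bound RNA of recombined cells, so cell type and ribosome loading cannot be told apart in this comparison. Macrophages of the brain's borders also use the Cx3cr1 promoter. In such bulk RNA, fewer cells of a type and less RNA per cell cannot be told apart either.

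Cx3cr1 itself held a mean of 8316 ± 1473 (SD, n = 3) scaled reads in the positive fraction and 304.4 ± 24.2 in input, a log2 fold change of 4.77 ± 0.14 (SE). Reads are given as scaled reads, the deposited raw value over the size factor of its library. The 10 listed microglial markers were all higher in the positive fraction (median log2 fold change 4.63, edgeR's quasi-likelihood test), and so were all 7 markers of border macrophages, whose sum rose from 198 to 255 scaled reads in input to 2645 to 5789. The 10 oligodendrocyte markers and the 5 erythroid markers tested were all lower, with medians of -2.58 and -2.28. Of 10 astrocyte markers 5 were lower and 0 higher (median -0.36), and 8 were lower under scaling by total counts. Of 10 neuronal markers 0 were lower and 3 higher (median 0.064), or 0 and 2 under scaling by total counts (median -0.013), and their summed level was 164733 to 200914 scaled reads in the positive fraction against 149545 to 170961 in input. All 10 endothelial markers were higher, with sums of 10451, 8286 and 5141 in the positive libraries of animals 201, 207 and 208 against 1996 to 2400 in input. None of the markers in the table was at 0 in the positive fraction. Of 10 monocyte and neutrophil markers only Ly6c2 was in the table, at 20.8 to 24.7 scaled reads in the positive libraries and 2.1 to 12.2 in input. The positive library of animal 208 held the lowest microglial, endothelial, astrocyte and oligodendrocyte sums and the highest neuronal sum of the positive libraries, so member values are also given without it. The part that RNA of neurons, vessels and border macrophages has in the isozyme values was not tested.

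Brain cells differ in how they use glucose, and the isozymes have long been tied to cell types. Hk1 is the main hexokinase of brain, Hk2 is best known from muscle and fat and from inflammatory activation, and Hk3 from myeloid blood cells. Eno2 is also called neuron-specific enolase. Ldhb-rich and Ldha-rich lactate dehydrogenase tetramers are classically linked to tissues that take up lactate and to tissues that release it.

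Across the 10 isozymes, 7 were higher in the positive fraction, 0 were lower and 3 did not pass the test (adjusted p under 0.05, edgeR). Of all 15344 genes tested, 46% were called in either direction and 24% were called higher. The 7 members are Hk1, Hk2, Hk3, Pfkl, Eno1, Ldha and Ldhb, and Pfkm, Pfkp and Eno2 are the other members. A fold limit of 1.25, as the study used, left 5 of the 10, which are Hk2, Hk3, Eno1, Ldha and Ldhb, and 39.8% of all genes passed it. Eno1 lay just above the limit, at 1.253-fold. It fell below the limit without the positive library of animal 208 or the input library of animal 207 or 208. The fractions did not overlap in 8 of 10 members, as in 56.5% of all genes. Sizes were uneven, since Hk3 and Hk2 exceeded 10-fold and the other calls lay between 1.17-fold for Hk1 and 1.45-fold for Ldhb. Hk3 and Hk2 ranked 213 and 335 from the top among 15344 log2 fold changes, higher than 98.6% and 97.8% of genes, whereas Ldhb exceeded 85.3% of them and Pfkp 41.1%. Under total count scaling the share of calls that were higher moved from 52.2% to 41.6% over all genes. Of all genes 19.9% were then called higher, and 5 of the 10 isozymes, without Hk1 and Pfkl. Without the positive library of animal 208, 7 members were again called higher and 4 of them passed the fold limit.

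**Figure D1:**
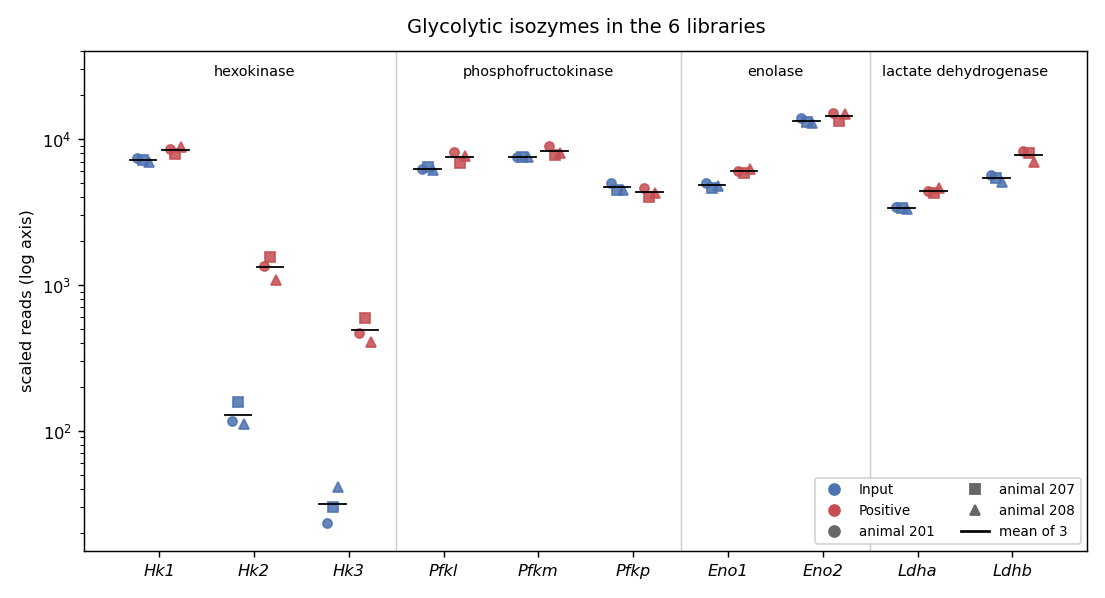
Scaled reads (log axis) of the 10 isozymes in the 3 input and 3 positive libraries, grouped by step, with a marker per animal and a line at the mean of each fraction. Hk2 and Hk3 are at 111 to 157 and 23.5 to 40.8 scaled reads in input and at 1075 to 1551 and 409 to 595 in the positive fraction, while the other isozymes hold at least 3306 scaled reads in every library.

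The hexokinases held the widest contrast. Hk2 and Hk3 were the only members in the study's cell-sorting list of 239 microglial genes, and no member was in the lists for astrocytes, oligodendrocytes or neurons. Their promoters are printed because these isozymes moved together and far more than the rest, to show the DNA at which each transcript starts. Each sequence covers 250 bases before and 50 bases after the start in the RefSeq table for GRCm38.p6 (mm10), on the minus strand that both genes use, written 5' to 3'. The Hk2 stretch is chr6:82774405-82774704 and the Hk3 stretch is chr13:55021336-55021635. Capitals mark, on either strand, ACGTG (reverse CACGT), the core of sites that hypoxia-inducible factor binds, GGAAGT (reverse ACTTCC), a core of sites of the ETS factor PU.1, and GGGCGG (reverse CCGCCC), the GC box.
Hk2 promoter: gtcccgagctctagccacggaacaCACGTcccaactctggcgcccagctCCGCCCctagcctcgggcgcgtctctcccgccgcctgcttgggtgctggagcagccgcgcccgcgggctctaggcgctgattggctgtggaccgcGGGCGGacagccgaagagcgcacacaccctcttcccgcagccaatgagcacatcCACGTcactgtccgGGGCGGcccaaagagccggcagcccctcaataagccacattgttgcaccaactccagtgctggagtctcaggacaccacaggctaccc
Hk3 promoter: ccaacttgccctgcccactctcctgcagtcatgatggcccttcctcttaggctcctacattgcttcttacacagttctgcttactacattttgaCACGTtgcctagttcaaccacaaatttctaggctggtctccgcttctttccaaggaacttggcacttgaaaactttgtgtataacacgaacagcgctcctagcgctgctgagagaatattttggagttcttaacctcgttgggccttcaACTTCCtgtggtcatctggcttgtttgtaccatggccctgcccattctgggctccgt
The Hk2 stretch held ACGTG at 2 places and GGGCGG at 3, with 67.3% G and C and 25 CpG dinucleotides. Hk3 held ACGTG and GGAAGT at 1 place each, with 49% G and C and 7 CpG, close to the medians of 52.7% and 7 over all promoter stretches. Among 32851 stretches of the same length, ACGTG occurred in 19.6%, GGAAGT in 23.8% and GGGCGG in 35.7%. The members had 17 stretches in the table, some genes with several starts, and ACGTG was in 6 of them, GGAAGT in 3 and GGGCGG in 6. Besides Hk2 and Hk3, ACGTG was in stretches of Hk1, Ldha and Pfkm, and GGAAGT in stretches of Hk1 and Pfkm. GGGCGG was also in stretches of Eno1, Ldha, Pfkl and Pfkp. Members with a small difference or no call thus held the same letters. GCGTG, the other core that hypoxia-inducible factor binds, was searched as well (reverse CACGC). It was in 11 of the 17 member stretches and in 32.4% of all stretches, and either core was in 14 of 17 against 43.8% of all. Either core contains a CpG, and the member stretches held 1 to 30 CpG, most of them above the median of 7 over all stretches. These shares were not adjusted for CpG content, so they do not show an excess of the cores beyond base composition. These 17 stretches are not independent, since stretches of Eno1 and of Pfkm overlap. A match describes these letters and is not a measured binding site.

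Hk2 (ENSMUSG00000000628, chr6:82725025-82774454, minus strand, 20 exon blocks) had 116, 157 and 111 scaled reads in the input of animals 201, 207 and 208 and 1347, 1551 and 1075 in the positive fraction. Every positive library was far above every input library, and animal 207 was highest in both fractions. The log2 fold change was 3.36 ± 0.16 (SE, adjusted p 3.18e-09, edgeR), or 10.3-fold, and 3.49 without the positive library of animal 208.

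Hk3 (ENSMUSG00000025877, chr13:55005985-55021385, minus strand) was the least abundant member, with 23.5, 29.8 and 40.8 scaled reads in input. Its positive libraries held 470, 595 and 409. Input reads before scaling were few, 23, 31.7 and 38.9 in animals 201, 207 and 208, and the log2 ratio per animal was 4.27, 4.28 and 3.29. The fitted log2 fold change of 3.96 ± 0.21 (adjusted p 9.3e-09, edgeR) corresponded to 15.6-fold and was 4.08 without the positive library of animal 208. A stretch of 34 exonic bases lies opposite Unc5a on the other strand.

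Hk1 (ENSMUSG00000037012, chr10:62268855-62379908, minus strand) was by far the most abundant hexokinase in both fractions. Input held 7374, 7158 and 6993 scaled reads and the positive fraction 8534, 7854 and 8776. The fractions did not overlap, but the difference was small, with a log2 fold change of 0.23 ± 0.08 (adjusted p 0.0345, edgeR), or 1.17-fold. This call was lost without the input library of animal 201, 207 or 208 (adjusted p 0.0595, 0.108 and 0.144) or the positive library of animal 201 (0.0837), and it was kept in 8 of 14 alternatives. It was kept, at 0.19, when the positive library of animal 208 was left out.

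On a scale of scaled reads per kilobase of exon, Hk1 averaged 841 ± 22.4 (SD, n = 3) in input, Hk2 21.5 ± 4.2 and Hk3 8.52 ± 2.39. The positive fraction had 983 ± 56, 222 ± 40 and 133 ± 25.8 in the same order. Hk1 exceeded Hk2 by 44.3, 31.9 and 44-fold per kilobase in the input of animals 201, 207 and 208 and by 4.43, 3.54 and 5.71-fold in the positive fraction. The mean log2 difference, positive minus input, was -3.15 for Hk1 over Hk2 and -3.77 for Hk1 over Hk3, and both ratios were lower in the positive fraction of 3 of 3 animals. An exact two-sided permutation test gave p = 0.1 for either, the smallest that 3 against 3 libraries allow (0.133 adjusted over the 8 isozyme pairs), so no ratio could pass 0.05 by that test. Hk2 over Hk3 was 3.06, 3.25 and 1.68 in input and 1.77, 1.61 and 1.62 in the positive fraction. This ratio was lower in the positive fraction of 3 of 3 animals, but the ranges of the fractions overlapped, and the unpaired exact permutation test gave p = 0.2 (adjusted 0.229). Leaving out the positive library of animal 208 gave mean log2 differences of -3.32 for Hk1 over Hk2, -3.92 for Hk1 over Hk3 and -0.60 for Hk2 over Hk3.

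As a share of the summed hexokinase level per kilobase of exon, Hk1 held 96.6% ± 0.52 in input and 73.5% ± 4.69 in the positive fraction, Hk2 2.46% ± 0.47 and 16.6% ± 2.86, and Hk3 0.98% ± 0.30 and 9.96% ± 1.87 (exact permutation p = 0.1 each, 0.143 adjusted over 10 shares). The sum itself was 871 ± 20.5 scaled reads per kilobase in input and 1338 ± 17.2 in the positive fraction, or 1.54-fold, without overlap of the libraries (exact permutation p = 0.1). Of this difference Hk2 held 200 scaled reads per kilobase, Hk1 142 and Hk3 125. That order turned with CCDS transcript length, where Hk1 had 1829 in input and 2138 in the positive fraction and Hk2 23.2 and 240. When the positive library of animal 208 was left out, the share of Hk1 differed by -25.3 percentage points, against -23.1 with it. Lengths matter for such sums, because exons merged over all transcripts of Hk1 span 8532 bases but its coding parts only 3187. With coding length the share of Hk1 was 97.5% in input and 80% in the positive fraction, that of Hk2 2.02% and 14.6%, and that of Hk3 0.49% and 5.41%. Hk1 stayed the largest and Hk3 the smallest share of the hexokinases in both fractions under each length tried.

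**Figure D2:**
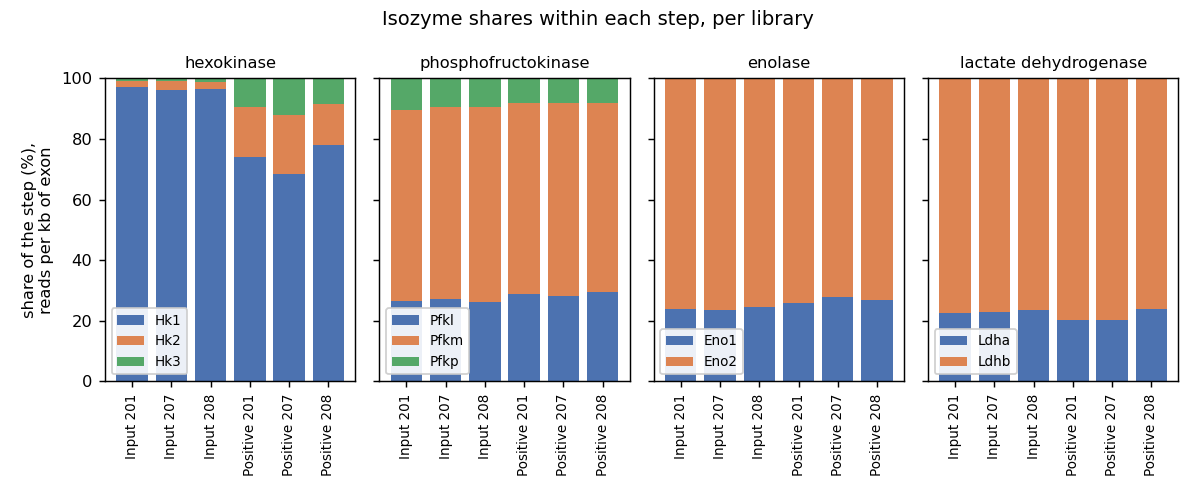
Share of each isozyme in the summed scaled reads per kilobase of exon of its step (%), 1 stacked bar per library. Hk1 is 96.1% to 97.1% of the hexokinase bars in input and 68.6% to 77.9% in the positive fraction, while shares in the other 3 steps differ by less than 3 percentage points in the mean.

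Phosphofructokinase isozymes differed little between the fractions. Pfkl (ENSMUSG00000020277, chr10:77986947-78010083, minus strand) was the member of this step past the test, with 6254, 6431 and 6113 scaled reads in input and 8161, 6902 and 7596 in the positive fraction. All positive libraries were above all input libraries, with animal 207 closest to input. The log2 fold change was 0.27 ± 0.08 (adjusted p 0.0191, edgeR), or 1.21-fold. It did not pass the test without the input library of animal 201, 207 or 208 (adjusted p 0.0543, 0.0516 and 0.0915) or the positive library of animal 201 (0.0793), and passed it in 8 of 14 alternatives. Leaving out the positive library of animal 208 gave 0.27 with the call kept.

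Pfkm (ENSMUSG00000033065, chr15:98092589-98132447, plus strand) had nearly equal input libraries, with 7497, 7562 and 7559 scaled reads. The positive libraries held 9001, 7786 and 8056, all above input, with animal 201 highest. The log2 fold change of 0.14 ± 0.08 did not pass the test (adjusted p 0.196, edgeR), and its interval of 2 SE ran from -0.03 to 0.30. It was 0.16 without the positive library of animal 208. Exons of Pfkm share 341 bases with Gm26513 on the same strand and 18 with Senp1 on the other.

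Pfkp (ENSMUSG00000021196, chr13:6579768-6648777, minus strand) was the single isozyme with a lower mean in the positive fraction. It had 4966, 4504 and 4486 scaled reads in input and 4643, 4028 and 4264 in the positive fraction. It was lower in 3 of 3 animals, but the fractions overlapped, and the log2 fold change of -0.11 ± 0.08 did not pass the test (adjusted p 0.297, edgeR, interval of 2 SE -0.27 to 0.055), and was -0.10 without the positive library of animal 208. Exons of Pitrm1 lie opposite 748 of its exonic bases, and the library kit and alignment used strand.

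Within this step the ratio of Pfkl to Pfkp per kilobase of exon was 2.53, 2.87 and 2.74 in input and 3.53, 3.44 and 3.58 in the positive fraction, a mean log2 difference of 0.38, higher in 3 of 3 animals. The mean log2 difference was 0.24 for Pfkm over Pfkp and 0.13 for Pfkl over Pfkm, without overlap of the libraries. The exact permutation p was 0.1 for each of the 3 ratios (0.133 adjusted). These differences were 0.36, 0.25 and 0.11, in the order given, when the positive library of animal 208 was left out. Pfkm had the highest level of the 3 in both fractions and Pfkp the lowest, at 2257 ± 10.9 and 347 ± 20.3 scaled reads per kilobase of exon in input. The gene model that gave the lengths of Pfkm differs in its coordinates from the deposited gene, so its level and share per kilobase are uncertain to that extent. With coding length the positive fraction held 3318 ± 256 for Pfkm and 3228 ± 270 for Pfkl, which did not differ beyond their spread. The change in the share of Pfkm was -0.66 percentage points with exonic length (exact permutation p = 0.5) and 0.080 with coding length, so its sign depended on the length. The summed level of the step was 3543 ± 26.1 in input and 3933 ± 304 in the positive fraction, 1.11-fold (exact permutation p = 0.1).

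Eno1 and Eno2 are read in this field as a general and a neuronal enolase. Eno1 (ENSMUSG00000063524, chr4:150236721-150248879, plus strand) had 5012, 4646 and 4786 scaled reads in input and 6014, 5869 and 6213 in the positive fraction. The libraries of each fraction were tight and did not overlap, with a log2 fold change of 0.33 ± 0.07 (adjusted p 0.00348, edgeR), or 1.25-fold. It passed the test in 14 of 14 alternatives and was 0.31 when the positive library of animal 208 was left out. A near-identical copy, Eno1b, was listed at 58.7 to 99.7 scaled reads, and reads may have been divided between the copies, so the level of Eno1 is uncertain to that extent.

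Eno2 (ENSMUSG00000004267, chr6:124760053-124769673, minus strand) had 13897, 13107 and 12839 scaled reads in input and 15028, 13303 and 14917 in the positive fraction, the most reads of any member. It was higher in 3 of 3 animals, but the fractions overlapped, since the positive library of animal 207 was below the input library of animal 201. The log2 fold change of 0.12 ± 0.09 did not pass the test (adjusted p 0.283, edgeR), and the interval of 2 SE ran from -0.054 to 0.29. The value without the positive library of animal 208 was 0.094. The median neuronal marker was at 104.5% of input, beside 108.5% for Eno2. The neuronal markers summed to 164733 to 200914 scaled reads in the positive fraction and 149545 to 170961 in input.

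Eno2 took 75.9% ± 0.47 of the enolase level per kilobase of exon in input and 73.2% ± 0.96 in the positive fraction. Eno1 over Eno2 was 0.315, 0.31 and 0.326 in input and 0.35, 0.386 and 0.364 in the positive fraction, a mean log2 difference of 0.21 without overlap (exact permutation p = 0.1, adjusted 0.133), and also 0.21 without the positive library of animal 208. The enolase sum was 3718 ± 146 in input and 4185 ± 231 scaled reads per kilobase in the positive fraction, 1.13-fold (exact permutation p = 0.1).

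Both lactate dehydrogenase genes were higher in the positive fraction. Ldhb (ENSMUSG00000030246, chr6:142490249-142507957, minus strand), the heart-type subunit, had 5624, 5364 and 5108 scaled reads in input and 8329, 7975 and 7012 in the positive fraction. Animal 208 had the lowest value in each fraction, and the fractions were well apart. The log2 fold change was 0.53 ± 0.09 (adjusted p 0.000276, edgeR), or 1.45-fold, and 0.60 without the positive library of animal 208.

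Ldha (ENSMUSG00000063229, chr7:46841475-46855627, plus strand), the muscle-type subunit, had 3436, 3367 and 3306 scaled reads in input and 4419, 4260 and 4603 in the positive fraction. Here animal 208 was the highest of the positive libraries. The log2 fold change of 0.39 ± 0.07 (adjusted p 0.000767, edgeR) was 1.31-fold, and it was 0.37 without the positive library of animal 208. Processed copies of Ldha in the genome can take or give reads, which adds uncertainty to its level.

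The ratio of Ldha to Ldhb per kilobase of exon was 0.29, 0.298 and 0.307 in input and 0.252, 0.253 and 0.311 in the positive fraction. It was lower in animals 201 and 207 and higher in animal 208, and the fractions overlapped (mean log2 difference -0.14, exact permutation p = 0.4). Leaving out the positive library of animal 208 gave -0.24. Ldhb was thus above Ldha in all 6 libraries, with 77% ± 0.51 of the level in input and 78.6% ± 2.07 in the positive fraction, or 63.2% and 65.4% with coding length. The summed level was 4435 ± 184 scaled reads per kilobase in input and 6288 ± 397 in the positive fraction, 1.42-fold (exact permutation p = 0.1), and Ldhb held 1533 and Ldha 320 of the difference.

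**Figure D3:**
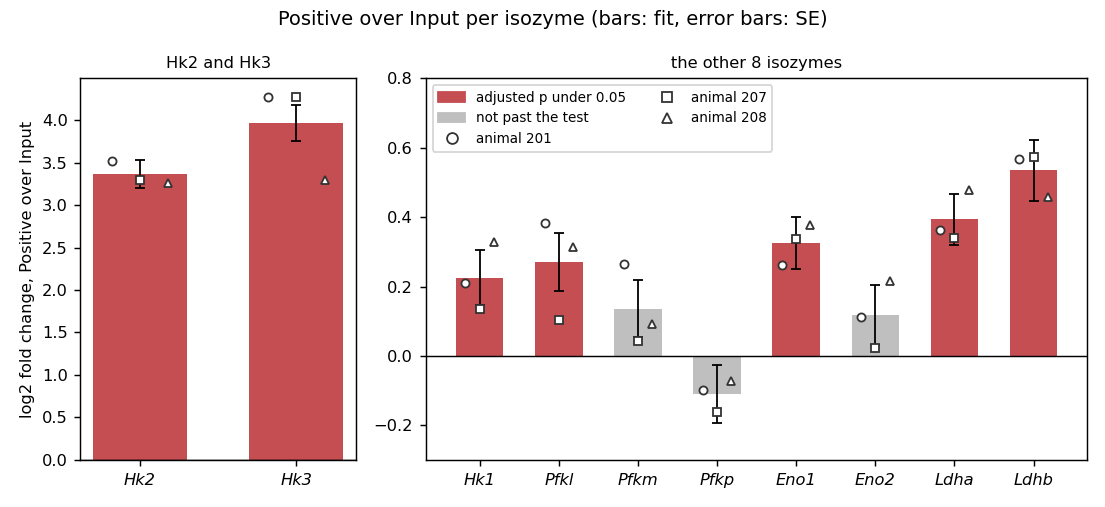
Log2 fold change of the positive fraction over input for each isozyme, with Hk2 and Hk3 on an axis of their own because of their size. Bars give the edgeR fit, error bars its SE and symbols the log2 ratio in each animal, and red bars passed the test. Pfkp is the isozyme below 0, and the animals spread most in Hk3, from 3.29 to 4.28.

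Ordered by scaled reads per kilobase of exon, input ran Ldhb (3417), Eno2 (2823), Pfkm (2257), Ldha (1018), Pfkl (939), Eno1 (895), Hk1 (841), Pfkp (347), Hk2 (21.5) and Hk3 (8.52). The libraries of Pfkl and Eno1, and those of Eno1 and Hk1, overlapped and these neighbours were not apart. In the positive fraction the order was the same, with 4950 for Ldhb at the top, 222 for Hk2 and 133 for Hk3 at the end, and Pfkl and Eno1 again not apart. Pfkp exceeded Hk2 by 16.2-fold in input and by 1.45-fold in the positive fraction. Between steps this order depends on the length used, since exons merged over all transcripts lengthen genes such as Pfkp (13401 bases, of which 2629 coding), whereas within each step the order of the means was the same under exonic, coding and CCDS transcript length.

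Each called member was compared over the 6 libraries with 12122 genes of at least 100 scaled reads on average, by the distance between log2 scaled reads after the mean of each gene was taken off. The difference between the fractions enters this distance, so a similar log2 fold change of the neighbours follows from the choice. Hk2 lay closest to Fgd2 (distance 0.177) and Ang (0.183), whose log2 fold changes were 3.35 and 3.49. Hk3 lay closest to Abcc3 (0.137) and then Sh3tc1 (0.292). The neighbours of Ldhb were Vat1 and Cpsf1 (0.084 each) and those of Ldha were Kbtbd2 (0.034) and Gm21985 (0.055). Eno1 lay next to Rpa1 (0.035) and Eef2 (0.054), Pfkl next to Nudt16 (0.079) and Exoc1 (0.090), and Hk1 next to Usp5 (0.052) and Zcchc12 (0.054). Of these, Nudt16 (adjusted p 0.0518, edgeR) and Zcchc12 (adjusted p 0.0679, edgeR) did not pass the test.

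The rest of glucose metabolism was read from 9 lists of enzymes and transporters with 91 genes, of which 80 were tested. Of these 22 were higher and 10 lower in the positive fraction, against 24% and 22% of all genes, and the median log2 fold change was 0.03 beside -0.01 over all genes. Under total count scaling 14 were higher and 13 lower, beside 3048 higher (19.9%) and 4272 lower of all 15344 genes. The same numbers over all genes stand beside the list counts with total count scaling given below. The other isozymes of the 4 steps gave no call among 5 tested (edgeR, unadjusted p between 0.0604 and 0.915). Ldhd, a mitochondrial lactate dehydrogenase for the D form, had 144 to 206 scaled reads in input and 167 to 258 in the positive fraction (log2 fold change 0.39, adjusted p 0.11, and 0.0388 with animal as a block). Eno3, the muscle enolase, had a log2 fold change of 0.21 (adjusted p 0.4). Without the positive library of animal 208 both passed, with adjusted p 0.0124 for Ldhd and 0.0303 for Eno3.

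Upstream of hexokinase stand the hexose transporters, of which 4 of 9 tested were higher and 1 was lower, or 3 and 2 with total count scaling. Slc2a5 (GLUT5), which carries fructose and is a known microglial gene, had 59.2 to 77 scaled reads in input and 1750, 2267 and 1467 in the positive fraction, a log2 fold change of 4.71 (adjusted p 4.27e-10, edgeR). Slc2a1 (GLUT1), the glucose transporter of vessels and glia, rose by 1.38 (adjusted p 4.13e-05, edgeR). It had 3591, 3024 and 1840 in the positive libraries of animals 201, 207 and 208. The endothelial sums above fell in the same order of animals. So did Ldhb, Slc16a3, G6pdx and other named genes, among them H6pd, Slc2a9, Slc2a6, Bsg, Ldhd, Gbe1 and Pck2. With 3 animals few orders are possible, so a shared order sets no gene apart. The part of vessel RNA in the Slc2a1 value was not tested. Slc2a9, a urate transporter of this family, rose by 0.65 (adjusted p 0.0414) but did not pass with total count scaling (0.0665), nor without the input library of animal 201 (0.146) or 207 (0.1) or the positive library of animal 201 (0.091) or 207 (0.0826). Slc2a12 fell by 1.38. Slc2a3 (GLUT3), the neuronal glucose transporter, had a log2 fold change of -0.16 (adjusted p 0.133), which passed with total count scaling (0.0302) and when the positive library of animal 208 was left out (0.00961). Slc2a6 had 0.22 (adjusted p 0.232).

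Phosphofructokinase is driven by fructose 2,6-bisphosphate, and of its 4 tested enzymes 1 was higher and 1 lower. Pfkfb3, the isozyme that mostly makes this activator, had 578, 584 and 674 scaled reads in input and 1211, 1132 and 1172 in the positive fraction (log2 fold change 0.94, adjusted p 2.65e-06, edgeR). Pfkfb2 fell by 0.67 (adjusted p 0.000274). Pfkfb4 had 0.37 (adjusted p 0.059, and 0.013 without the positive library of animal 208), and Tigar, a phosphatase that acts against this activator, -0.01.

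Among the other glycolytic enzymes 3 of 12 were higher and 1 lower, and under total count scaling 0 were higher. Pkm, pyruvate kinase, rose by 0.26 (adjusted p 0.027, edgeR) and Aldoa, the ubiquitous aldolase, by 0.25 (adjusted p 0.0429). Aldoa did not pass with animal as a block (0.0564), and neither Pkm (0.101 and 0.0608) nor Aldoa (0.147 and 0.0932) passed with total count scaling or with limma on the deposited values. Without the input library of animal 201, 207 or 208 or the positive library of animal 201 the calls were also lost, with adjusted p 0.0928, 0.0775, 0.116 and 0.0719 for Pkm and 0.116, 0.107, 0.169 and 0.0882 for Aldoa. The third was Gapdh, at a log2 fold change of 0.21 (adjusted p 0.0497), with many processed copies in the genome. Gapdh did not pass with DESeq2 (0.0527), limma on the deposited values (0.142) or total count scaling (0.2), nor without the input library of animal 207 (0.198) or 208 (0.153) or the positive library of animal 201 (0.152). Bpgm, which makes 2,3-bisphosphoglycerate and is best known from red cells, fell by 0.49 (adjusted p 0.000435, edgeR). The erythroid markers tested were all lower, as were the oligodendrocyte markers, and a link of Bpgm to either was not tested. Gpi1 had -0.03 and Aldoc, an astrocyte aldolase, -0.16 (adjusted p 0.384). Aldoc depended on single libraries, with -0.34 (adjusted p 0.0371) without the positive library of animal 201 and -0.0027 (adjusted p 0.984) without that of animal 208.

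Downstream, lactate leaves or enters through monocarboxylate transporters, of which 1 of 6 was higher and 2 were lower. Slc16a3 (MCT4), known for lactate export, rose from 47.9 to 84.7 scaled reads in input to 142 to 226, a log2 fold change of 1.66 (adjusted p 0.000134, edgeR). Slc16a8 (MCT3) fell by 2.18 and Emb, a partner protein of these carriers, by 0.67. The partner Bsg had 0.07 and Slc16a1 (MCT1) -0.23, neither past the test, though Slc16a1 passed without the input library of animal 201 (adjusted p 0.0237). Of 15 genes for the entry of pyruvate into mitochondria 3 were higher and 1 lower, or 2 and 3 with total count scaling. Dld and Dlat, subunits of pyruvate dehydrogenase, rose by 0.28 and 0.27, Pdk1, a kinase that switches the complex off, by 0.49, and Pdk4, another such kinase, fell by 0.71. Pdha1 and Pdhb, which form the first subunit, had 0.04 and 0.007. Dlat did not pass with total count scaling (adjusted p 0.0558) or limma on the deposited values (0.0643), nor without the input library of animal 207 (0.0666) or 208 (0.0524).

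The pentose phosphate pathway, which branches off after hexokinase and makes NADPH, had 5 of 9 genes higher and 0 lower, with a list median of 0.23 beside -0.01 over all genes. H6pd, its first enzyme in the endoplasmic reticulum, rose from 80.7 to 136 scaled reads in input to 304 to 354 (log2 fold change 1.52, adjusted p 2.1e-05, edgeR). G6pdx, the cytosolic first enzyme, rose by 0.82, Pgd by 0.77 and Taldo1, transaldolase, by 0.47. The other call was Tkt, transketolase, at 0.23, named after its value was seen, and Pgls and Rpe had 0.14 and -0.03. Under total count scaling 4 of 9 were higher and 0 lower. Glycogen metabolism was split, with 4 of 17 higher and 4 lower. Pygl, the liver-type glycogen phosphorylase, rose by 0.82, Pgm1 (ENSMUSG00000029171, chr5) by 0.80 and Gbe1, the branching enzyme, by 0.69. Phkg1, a phosphorylase kinase subunit, fell by 0.59. Pygb, the brain-type phosphorylase, had 0.03 and Pgm2 (ENSMUSG00000025791, chr4) 0.03. Both Pgm symbols are those of the deposited annotation, and which gene gives the main phosphoglucomutase was not settled here. Of the 3 gluconeogenic genes tested Pck2 rose by 0.33 (adjusted p 0.017, 0.0563 under total count scaling, 0.0867 without the input library of animal 208 and 0.0685 and 0.051 without the positive library of animal 201 and 207), while Slc37a4 and G6pc3 had 0.12 and 0.002.

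**Figure D4:**
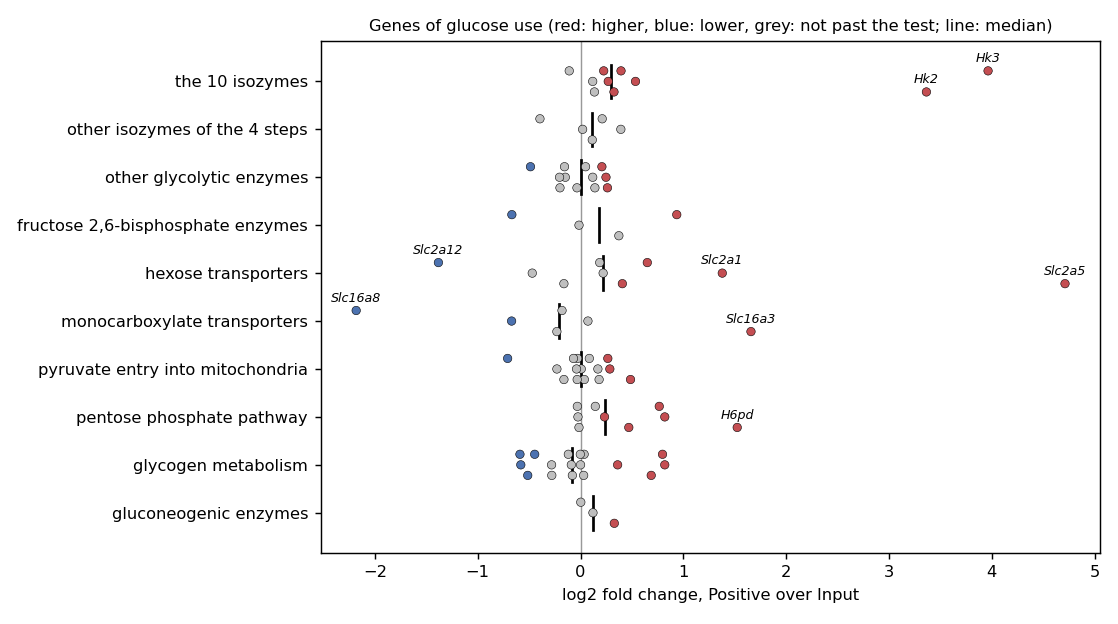
Log2 fold change of the positive fraction over input for each tested gene of the 10 isozymes and of 9 lists of glucose metabolism, red where higher, blue where lower, grey where the test was not passed, with a line at the median of each list. Slc2a5 at 4.71 lies beyond Hk3 and Hk2, and Slc16a8 at -2.18 is the lowest.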

How the data were processed

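RNA of 3 input and 3 positive hippocampal libraries was sequenced from directional, poly(A)-selected libraries. The authors aligned the trimmed read pairs by strand to mm10 with Strand NGS and assigned them to Ensembl genes. The submitters' processing notes also name DESeq, with no version. The deposited raw columns hold expected counts (estimated counts, 17.3% to 23.1% whole per library) for genes that had 20 or more raw reads in all libraries of either fraction. The deposited normalized columns are log2 values scaled by the authors with DESeq size factors, minus the median of the gene over input. The number of per-sample columns that could not be mapped was 0.

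These were rounded and tested unpaired with edgeR 4.0.16 (glmQLFit, glmQLFTest, RLE scaling) in R 4.3.3 over 15344 genes, after 44 genes without more than 20 scaled reads in all libraries of either fraction were taken out. Benjamini-Hochberg adjustment was made over these 15344 genes. SE was derived from the F statistic, and intervals of 2 SE are approximate. Ratios, shares and sums were tested by exact two-sided permutation over libraries. Exonic, coding and CCDS transcript lengths came from GENCODE M21 (GRCm38). The procedure was tested on simulated data. Alternatives were TMM and total count scaling, DESeq2 1.42.0, other filters, animal as a block, each library left out, other lengths and, chosen after seeing the data, halved reads, limma 3.58.1 on the deposited log2 values and the CCDS transcript length.

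Libraries of the same number came from the same animal. Their deviations from the fraction means correlated by 0.241, 0.0732 and 0.146 over 12159 genes in animals 201, 207 and 208. Replicate libraries differed by more than sampling noise (chi-square per degree of freedom of 3.72 to 18.3). Reads carried no molecular identifiers, so read numbers speak of counting error only, and how mates of a pair were counted was not settled.

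The members and all gene lists were chosen with earlier results of these data known. Named were the 10 members, per list up to 4 called genes with the largest log2 fold change and up to 2 uncalled genes with the most reads, a near-identical copy, 2 nearest genes per called member, and Cx3cr1. The other genes of these lists that were tested are given as counts. 1 gene was taken out of the list of other glycolytic enzymes and is not reported here.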

Additional observations from a re-analysis of the deposited data

How the results depend on the processing

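Hk2, Hk3, Eno1, Ldha and Ldhb kept their direction and call in 14 of 14 alternatives each, and Pfkm, Pfkp and Eno2 stayed uncalled in theirs. Hk1 and Pfkl lost their calls under total count scaling (log2 fold changes 0.15, adjusted p 0.144, and 0.19, adjusted p 0.0799) and with limma on the deposited values (0.21, 0.0996, and 0.25, 0.0694), and ranged from 0.19 to 0.27 and from 0.21 to 0.33 with each library left out. Left-out libraries gave 5 to 7 members higher and 4 to 6 past the fold limit. Total count scaling gave 3 past it, without Eno1 and Ldha, whose log2 fold changes were then 0.25 and 0.317. Total count scaling also left 14 pathway genes higher in place of 22 and a log2 change of the summed hexokinase level of 0.54 in place of 0.62. The cause was not tested.

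With coding length, no length and CCDS transcript length, changes of share were -17.5, -15.7 and -14.1 percentage points for Hk1 (-23.1 with exonic length), 4.91, 4.40 and 5.85 for Hk3 (8.98), 3.57, 3.53 and 3.14 for Pfkl (2.28), 0.080, 0.25 and 0.40 for Pfkm (-0.66), and -3.65, -3.79 and -3.54 for Pfkp (-1.61). Hk2 had 8.23 with CCDS transcript length (14.1).

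Of uncalled genes near 0, signs turned under total count scaling for Bsg (-0.0049), Pdha1 (-0.041), Pdhb (-0.070), Pgm2 (-0.042), Pygb (-0.046) and G6pc3 (-0.075), and with limma for Pdhb (-0.011) and G6pc3 (-0.0062). With each library left out, Gpi1 ranged from -0.076 to 0.0059, Tigar from -0.071 to 0.077, Pdha1 from -0.011 to 0.064, Pdhb from -0.051 to 0.052, Rpe from -0.14 to 0.047, Pgm2 from -0.026 to 0.10, Pygb from -0.018 to 0.077 and G6pc3 from -0.081 to 0.11.

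With animal as a replicate block 7 members were higher, 0 lower and 5 past the fold limit, no member's call changed, and 7567 genes were called in place of 7054. With 3 against 3 libraries, exact permutation tests of ratios, shares and sums cannot go below p = 0.1.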
